A study of Mus musculus with 8 samples.

Results

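The stearoyl-CoA desaturases of the mouse are encoded by Scd1, Scd2, Scd3 and Scd4, and these 4 of the 55421 genes in the deposited table were taken by their gene symbols. The family itself was chosen from earlier results on these same libraries, with the genotype differences of its members known, so the values of Scd1 to Scd4 are given below as a description and without a test. Right ventricular RNA came from 4 female homozygous POLG D257A mice (POLG, libraries E to H) and 4 female wild type mice (WT, libraries A to D), all 9 to 10 months of age and 1 library per mouse. The D257A substitution, carried by the POLG mice in every tissue, leaves the DNA polymerase of mitochondria without proofreading, and both genotypes were bred from heterozygous parents of the line B6.129S7(Cg)-Polgtm1Prol/J. Levels are FPKM, that is fragments scaled by transcript length and library size. Differences are POLG minus WT on the scale of log2(FPKM + 1), where a change at low FPKM comes out too small, and are given with their standard error (SE).

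Stearoyl-CoA desaturases sit in the membrane of the endoplasmic reticulum and place a double bond into saturated acyl-CoAs, which turns stearoyl-CoA into oleoyl-CoA and palmitoyl-CoA into palmitoleoyl-CoA. Electrons reach the enzyme from NADH through cytochrome b5 reductase and cytochrome b5, and the products go into triglycerides, phospholipids and cholesterol esters. In the mouse, Scd1 is the main form of liver and fat, Scd2 that of brain and of newborn tissues, Scd3 is found in skin and Harderian gland, and Scd4 is known as the heart form.

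The 4 genes lie side by side on mouse chromosome 19 (chr19:44203269-44407879, mm10) in the order Scd3, Scd2, Scd4 and Scd1, with Scd1 on the minus strand and the others on the plus strand. Scd4 (ENSMUSG00000050195.8) spans chr19:44333092-44346743 and its longest annotated transcript has 3306 nt in 6 exons. Scd1 (ENSMUSG00000037071.3) spans chr19:44394455-44407879 with a transcript of 4832 nt, Scd2 (ENSMUSG00000025203.6) spans chr19:44293674-44306864 with 5455 nt, and Scd3 (ENSMUSG00000025202.8) spans chr19:44203269-44244016 with 3489 nt. Each of these transcripts also has 6 exons.

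The coding sequences are alike, which bears on how reads could be shared among the members. Scd4 is the most distant, with 85.2% of aligned coding bases identical to Scd1, 83.8% to Scd2 and 84.3% to Scd3. Scd1 has 90.4% identity with Scd2 and 91.5% with Scd3, and Scd2 has 88.3% with Scd3. The 60 coding bases of exon 4 in which the members are most alike (chr19:44338922-44338981 in Scd4) hold codons of a histidine box, the part of membrane desaturases that binds iron. They are shown, 5′ to 3′ on the coding strand, because a read that lies inside them does not tell Scd4, Scd1 and Scd2 apart. A capital marks a base that differs from Scd4.
Scd4: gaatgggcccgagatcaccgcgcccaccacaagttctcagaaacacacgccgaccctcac
Scd1: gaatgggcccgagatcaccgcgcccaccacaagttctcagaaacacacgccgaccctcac
Scd2: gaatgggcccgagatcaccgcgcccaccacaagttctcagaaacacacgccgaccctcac
Scd3: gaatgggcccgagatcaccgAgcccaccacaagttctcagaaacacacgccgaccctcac
Only Scd3 differs from Scd4 in this stretch, at 1 base.

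The 60 coding bases of exon 5 in which the others differ most from Scd4 (chr19:44341297-44341356 in Scd4) are shown for the opposite reason. Capitals mark, in Scd1, Scd2 and Scd3, bases that differ from Scd4 and, in Scd4, bases found in none of the other members.
Scd4: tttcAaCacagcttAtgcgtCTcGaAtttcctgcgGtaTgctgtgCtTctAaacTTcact
Scd1: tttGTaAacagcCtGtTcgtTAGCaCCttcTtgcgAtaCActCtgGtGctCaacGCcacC
Scd2: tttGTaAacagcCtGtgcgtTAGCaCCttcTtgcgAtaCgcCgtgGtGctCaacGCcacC
Scd3: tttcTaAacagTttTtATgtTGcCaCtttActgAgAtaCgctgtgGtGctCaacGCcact
Here 23 bases of Scd1, 21 of Scd2 and 19 of Scd3 differ from Scd4, and 14 bases of Scd4 are its own. Over whole transcripts, 0.53% of the 100-base windows of Scd4 also occur in a transcript of another gene, against 2.66% for Scd1, 0.896% for Scd2 and 2.54% for Scd3. With 50-base windows the order differs, at 6.32% for Scd4, 4.66% for Scd1, 4.01% for Scd2 and 6.66% for Scd3. How the authors' quantification assigned reads from such windows is not given in the sources used here, so Scd3, at the lowest level, is the most uncertain of the 4.

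The files give no read totals, and depth was estimated from the smallest steps between low FPKM. It was roughly 15.2 to 21.9 M fragments for POLG and 13.5 to 22.7 M for WT. WT C (13.5 M), POLG H (15.2 M) and WT D (16.2 M) were the shallowest, against 20.6 to 22.7 M in the others. All 10 markers of ventricular cardiomyocytes were measured above the filter, with summed levels of 9266 to 11711 FPKM in POLG and 12400 to 14719 FPKM in WT. At the threshold used below, 2 of them (Tnni3 and Myh6) were lower in POLG, as were 2.12% of all genes tested. All 10 had a difference below 0, against 68.3% of all genes tested. Wholly lower in POLG were 5 of the 10, against 12.9% of all genes tested. WT C and WT D stood apart in Myl7, a myosin light chain of atria. It reached 51.7 and 110 FPKM there and at most 0.498 FPKM in the other 6 libraries. The gap was smaller for the sum of 5 atrial markers. That sum was 67.45, 200, 108 and 164 FPKM in POLG E to H, and 38.3, 52.6, 263 and 636 FPKM in WT A to D. Red cell RNA was also higher in POLG, with 4 of 5 erythroid markers past the threshold, against 0.694% of all genes tested. In bulk tissue, fewer cells of a type and less RNA per cell cannot be told apart.

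Scd4 was the most abundant desaturase in every POLG library and was several times higher in POLG than in WT. Scd4 was at 18.7, 15.2, 13.9 and 26.8 FPKM in POLG E to H, and at 1.39, 6.31, 1.89 and 1.84 FPKM in WT A to D. The lowest POLG library was above the highest WT library, WT B, which alone among the WT libraries exceeded 2 FPKM. The means were 18.7 ± 5.79 FPKM in POLG and 2.86 ± 2.32 FPKM in WT (SD, n = 4 each), a ratio of 6.53. On the log2 scale the difference was 2.46 (SE 0.35), the fourth largest difference above 0 among the 10236 genes whose mean reached 1 FPKM. About 1008 to 1347 fragments stood behind the Scd4 value of a POLG library and about 84.4 to 473.7 behind that of a WT library. Without WT B the difference was 2.82 and without POLG H it was 2.28.

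Scd1 differed in the other direction and at lower levels. Scd1 was at 1.77, 1.43, 1.51 and 1.06 FPKM in POLG E to H, and at 2.32, 1.78, 4.14 and 3.67 FPKM in WT A to D. The groups did not overlap, but only just, since POLG E (1.771 FPKM) was next to WT B (1.777 FPKM) and WT C and WT D were the highest libraries by a wide margin. The means were 1.44 ± 0.293 FPKM in POLG and 2.98 ± 1.11 FPKM in WT (SD, n = 4 each), with a log2 difference of -0.67 (SE 0.20). Without WT C and WT D the difference was -0.32 (SE 0.14).

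Scd2 spread widely within POLG. Scd2 was at 3.45, 1.85, 1.08 and 0.186 FPKM in POLG E to H, and at 3.52, 3.14, 4.74 and 4.38 FPKM in WT A to D. POLG E lay inside the WT range, so the groups overlapped, while POLG H, with about 15.4 fragments, was far below all other libraries. The means were 1.64 ± 1.38 FPKM in POLG and 3.94 ± 0.740 FPKM in WT (SD, n = 4 each), with a log2 difference of -1.05 (SE 0.35). Without POLG H the difference was -0.72 (SE 0.25).

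Scd3 was barely detected. It was listed at 0, 0.0386, 0.0380 and 0 FPKM in POLG E to H, and at 0.0629, 0.0416, 0.0412 and 0.0348 FPKM in WT A to D. These values correspond to between 0 and about 4.51 fragments per library, and a count of 0 allows up to 3 fragments, or 0.0395 FPKM in POLG E and 0.0566 FPKM in POLG H. No fold is given for Scd3, which did not reach the filter on low values and so did not enter the fit, while the 3 others did. Of these 3 members, 1 lay wholly higher and 1 wholly lower in POLG. Among all genes tested, 2.96% lay wholly higher and 12.9% wholly lower. Because the family was chosen with this contrast known, nothing is read from that count.

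**Figure D1:**
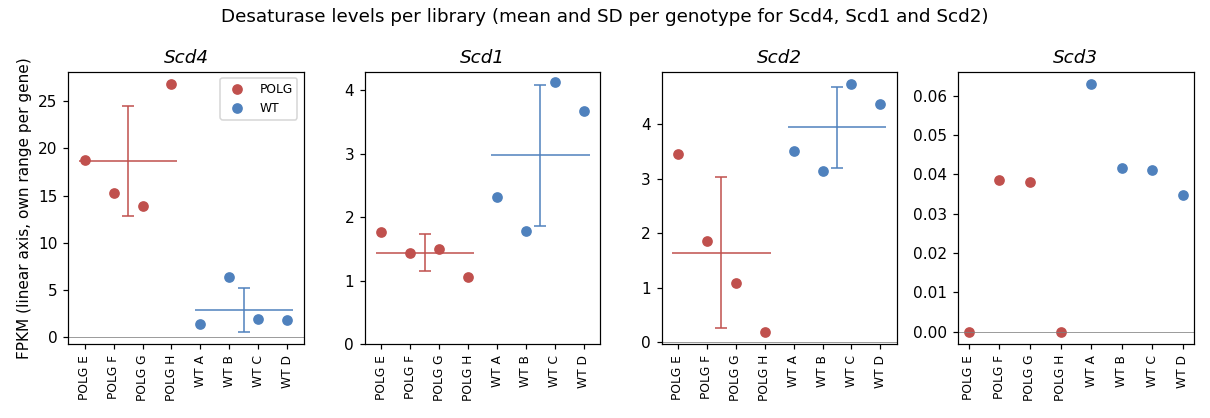
FPKM of Scd4, Scd1, Scd2 and Scd3 (vertical, linear axes with a range of their own) in each library (horizontal), POLG in red and WT in blue; long lines are means and bars are ±1 SD over 4 libraries, left out for Scd3. Scd4 is at 13.9 FPKM or more in each POLG library and at 6.31 FPKM or less in each WT library, while Scd1 and Scd2 have their highest values in WT C.

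The genotypes also differed in which desaturase led. Scd4 made up 78.2%, 82.1%, 84.2% and 95.6% of the summed FPKM of the 4 genes in POLG E to H, and 19.03%, 56.0%, 17.5% and 18.6% in WT A to D. In each POLG library and in WT B, Scd4 was the leading form, whereas in WT A, WT C and WT D it was Scd2, at 48.3%, 43.9% and 44.1%. The Scd4 share averaged 85.0% ± 7.46 in POLG and 27.8% ± 18.8 in WT (SD, n = 4 each), a difference of 57.2 percentage points. Since both numerator and total come from the same library, this share does not depend on a factor that scales the whole library.

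Scd1 held 7.0% ± 2.27 of the sum in POLG and 30.7% ± 10.4 in WT, and Scd2 held 7.89% ± 5.80 in POLG and 41.0% ± 8.99 in WT (SD, n = 4 each). The summed level of the 4 genes was 23.9, 18.5, 16.5 and 28.1 FPKM in POLG E to H, and 7.28, 11.3, 10.8 and 9.92 FPKM in WT A to D, with means of 21.8 ± 5.23 FPKM in POLG and 9.82 ± 1.78 FPKM in WT. The sum of Scd1 and Scd2 alone was 3.08 ± 1.66 FPKM in POLG and 6.92 ± 1.85 FPKM in WT. The higher total in POLG thus lay in Scd4.

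**Figure D2:**
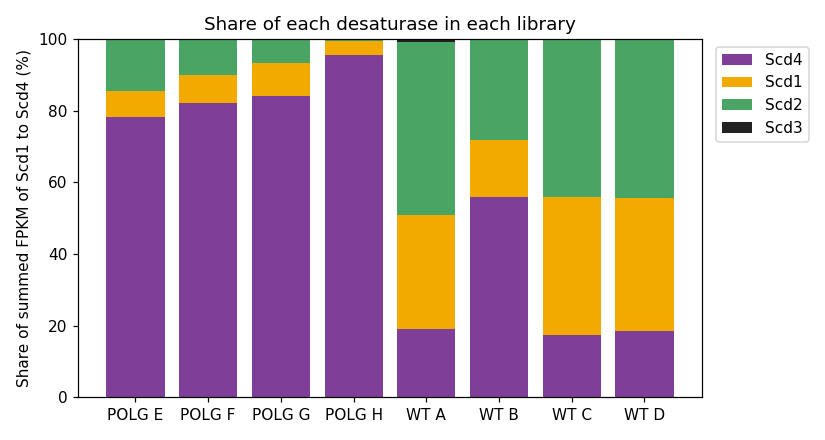
Share of each desaturase in the summed FPKM of Scd1 to Scd4 (vertical, percent) in each library (horizontal, POLG then WT). Scd4 fills 78.2% to 95.6% of the POLG bars and 17.5% to 56.0% of the WT bars, with WT B the highest of WT.

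The genes next to the cluster were examined because neighbouring genes can move together. On the side of Scd3, Bloc1s2, a subunit of a lysosome-related organelle complex, was at 3.55, 3.29, 5.01 and 3.14 FPKM in POLG E to H, and at 3.05, 3.85, 3.82 and 4.96 FPKM in WT A to D. On the side of Scd1, Sec31b, a COPII coat subunit, was at 2.11, 2.14, 2.40 and 1.98 FPKM in POLG E to H, and at 2.39, 2.27, 4.76 and 5.15 FPKM in WT A to D. The genotypes overlapped in both, and Sec31b, like Scd1, had its highest values in WT C and WT D. Farther out, beyond Bloc1s2, Chuk was at 2.31 to 2.73 FPKM in POLG and 2.55 to 3.47 FPKM in WT. Beyond Sec31b, Ndufb8 lay wholly lower in POLG (71.5 to 76.9 FPKM against 79.2 to 82.7 FPKM in WT), as did 12.9% of all genes tested. Gm6951 and Gm35183, annotated inside the cluster, were listed at 0 in all 8 libraries. Also inside it, Mir5114 was at 0.104 to 0.194 FPKM, and Gm50323 and Gm50334 were at most at 0.0562 FPKM.

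The 5 genes whose log2(FPKM + 1) was most like that of Scd4 over the 8 libraries, among 4332 genes whose mean reached 5 FPKM, were Rbp7, Cidea, Acot2, Hsdl2 and Hsd17b11 (Pearson r of 0.99, 0.97, 0.97, 0.97 and 0.97). Spearman's rho was 0.90, 0.90, 0.98, 0.86 and 0.90 for the same genes, and with WT A and WT D left out, the libraries farthest from the median of Scd4, r was between 0.93 and 0.99. These genes were picked for likeness, and the 8 points fall into 2 genotypes, so the coefficients are descriptions. With each genotype centred on its own mean, r was between 0.82 and 0.96.

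Rbp7, a retinol-binding protein, was at 17.1, 16.5, 16.7 and 20.5 FPKM in POLG E to H, and at 6.03, 10.8, 5.63 and 5.0 FPKM in WT A to D. Acot2, a mitochondrial acyl-CoA thioesterase, was at 49.2, 37.5, 48.5 and 69.1 FPKM in POLG E to H, and at 19.5, 36.5, 20.1 and 19.9 FPKM in WT A to D. Hsd17b11, a dehydrogenase of lipid droplets, was at 14.7, 11.6, 13.1 and 15.6 FPKM in POLG E to H, and at 6.25, 12.0, 6.38 and 6.52 FPKM in WT A to D. In all of them, as in Scd4, POLG H was the highest POLG library and WT B the highest WT library.

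The genes most like Scd1 were Dcn, the matrix proteoglycan decorin of fibroblasts, Maob, Dmac2, Mir208b and Kansl3, with r between 0.96 and 0.98 and between 0.79 and 0.92 once WT C and WT D were left out. The genes most like Scd2 were Fhod3, a sarcomeric formin, Tm2d2, Tbcb, Gramd4 and Snrnp200, with r between 0.95 and 0.98 and between 0.58 and 0.87 without POLG H and POLG G. After each genotype was centred on its own mean, r was between 0.91 and 0.97 for the Scd1 genes and between 0.89 and 0.96 for the Scd2 genes. No gene was among the 5 of more than 1 desaturase.

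The rest of the pathway was then compared across all 10236 genes tested with limma. With a Benjamini-Hochberg adjusted p under 0.05 as the threshold, 0.694% of genes (71) were called higher in POLG and 2.12% (217) were called lower, and the median difference of all genes tested was -0.09. With median ratio scaling the split was 129 higher and 120 lower, and with quantile normalization 128 higher and 140 lower. Over 8 lists of related genes, 3 genes were higher and 3 lower. All 3 higher genes belonged to the list of PPAR target genes, and the 3 lower genes belonged to 3 different lists.

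Target genes of the PPAR nuclear receptors, which turn on fatty acid use in heart, were higher in POLG for 3 of 16 members tested, with none lower. By the same test, 0.694% of all genes tested were higher and 2.12% lower. All 16 had a difference above 0, against 31.7% of all genes tested. Their median was 0.45, and 8 of 16 lay wholly higher in POLG, against 2.96% of all genes tested. The list, like the others, was chosen with earlier results of these data known, so these counts are a description.

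Fabp3, the fatty acid-binding protein of heart, was at 3513 ± 168 FPKM in POLG and 2539 ± 262 FPKM in WT (SD, n = 4 each, log2 difference 0.47, limma adjusted p = 0.0302). Plin2, a lipid droplet coat protein, was at 13.3 ± 1.85 FPKM in POLG and 7.99 ± 1.54 FPKM in WT (log2 difference 0.68, limma adjusted p = 0.0451). These calls depended on the libraries used. Plin2 missed the threshold on omitting any 1 of the 8 libraries (limma adjusted p 0.062 to 0.112), and Fabp3 did so for 5 of the 8 (0.0278 to 0.0929 over all 8). None of the list passed without POLG E, without WT D, or without WT C and WT D together, while all 16 differences stayed above 0 in those settings.

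Pdk4, the kinase that switches off pyruvate dehydrogenase, did not pass (limma adjusted p = 0.146), and its highest library of each genotype was that of Scd4. Pdk4 was at 267, 134, 269 and 344 FPKM in POLG E to H, and at 41.7, 291, 40.9 and 43.2 FPKM in WT A to D. Its groups overlapped, with WT B above POLG E, POLG F and POLG G, unlike those of Scd4. WT B, with the highest Scd4 of WT, was also the highest WT library for 10 of the 16 PPAR target genes (62.5%, against 25.2% of all genes tested). POLG H, with the highest Scd4 of POLG, was the highest POLG library for 9 of 16 (56.2%, against 11.7% of all genes tested). This order was looked at after the values of Scd4 were seen, and its part in the genotype difference of Scd4 was not tested. With both WT B and POLG H left out, the Scd4 difference was 2.64.

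**Figure D3:**
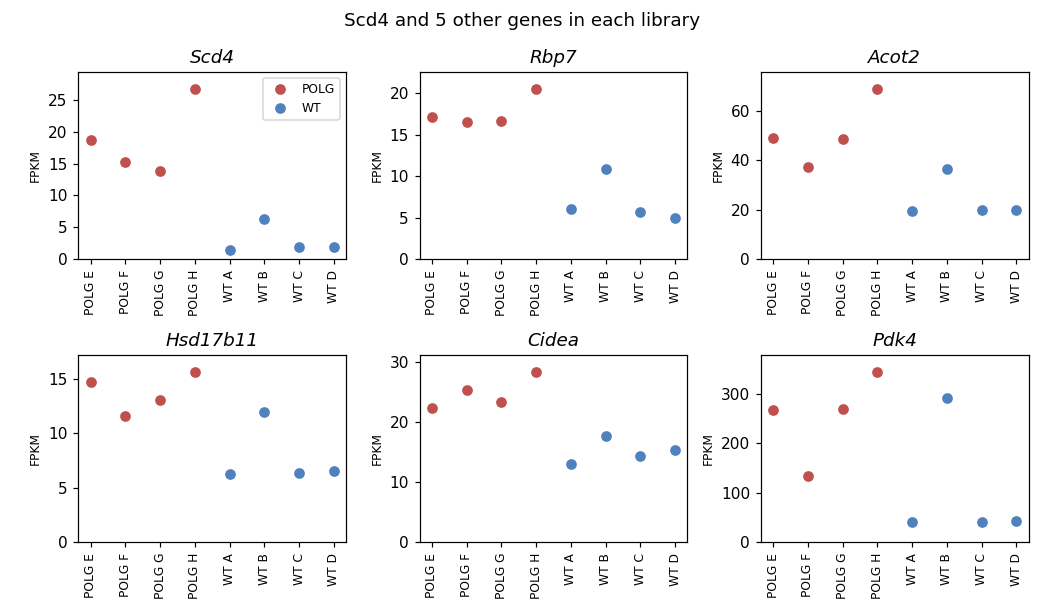
FPKM (vertical, linear axes from 0) of Scd4, of 4 of the genes most like it (Rbp7, Acot2, Hsd17b11, Cidea) and of the PPAR target gene Pdk4 in each library (horizontal), POLG in red and WT in blue. WT B is the highest WT point for each gene drawn, and POLG H is the highest POLG point for all 6 genes.

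Of the 18 regulators of desaturase transcription tested, 1 was lower in POLG by the test and none higher. Of all genes tested, 2.12% were lower and 0.694% higher. The list median was -0.16, and 15 of 18 differences lay below 0, as did 68.3% of those of all genes tested. Mlxipl, which encodes the carbohydrate-responsive factor ChREBP, was at 1.61, 1.46, 1.82 and 2.13 FPKM in POLG E to H, and at 3.26, 2.81, 4.01 and 4.17 FPKM in WT A to D. The groups did not overlap, and the log2 difference was -0.72 (SE 0.12, limma adjusted p = 0.0304). Srebf1, the SREBP-1 factor that drives Scd1 in liver, was at 3.56 ± 0.376 FPKM in POLG and 4.01 ± 1.0 FPKM in WT (limma adjusted p = 0.672).

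Nr1h3, the liver X receptor LXRα, was at 2.62 ± 0.40 FPKM in POLG and 3.68 ± 0.22 FPKM in WT and did not pass (limma adjusted p = 0.0724). Among the PPAR genes themselves, Ppara was at 3.32 ± 1.0 FPKM in POLG and 5.04 ± 0.32 FPKM in WT (adjusted p = 0.118 by limma), and Pparg was at 4.22 ± 0.48 FPKM in POLG and 2.64 ± 0.75 FPKM in WT (adjusted p = 0.0817 by limma). Of the 18 regulators tested, 1 (Pparg) lay wholly higher in POLG, against 2.96% of all genes tested. Wholly lower were 3 of the 18 (Mlxipl, Nr1h3 and Ppara), against 12.9% of all genes tested. None of the 4 LXR target genes tested passed by limma, and 1 had an unadjusted p under 0.05 (2277 of all 10236 genes). Lpcat3, a lysophospholipid acyltransferase, had the smallest p among them (difference 0.34, limma adjusted p = 0.193), followed by the cholesterol exporter Abca1 (difference 0.10, limma adjusted p = 0.756).

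Genes of fatty acid synthesis and elongation make the substrates of the desaturases. Of the 10 members tested, 1 passed the test and was lower in POLG, against 2.12% of all genes tested. The median of these 10 was 0.04, and 6 of the differences lay above 0, against 31.7% of those of all genes tested. Fasn, the fatty acid synthase, was at 1.32, 1.22, 1.19 and 1.03 FPKM in POLG E to H, and at 2.27, 1.69, 2.80 and 2.62 FPKM in WT A to D. The groups did not overlap, and 12.9% of all genes tested likewise lay wholly lower in POLG. The log2 difference of Fasn was -0.60 (SE 0.12, limma adjusted p = 0.0388). Elovl6, which elongates palmitate to stearate, stayed below the filter at 0.105 ± 0.048 FPKM in POLG and 0.184 ± 0.074 FPKM in WT. Acly, which makes cytosolic acetyl-CoA, was at 5.12 ± 0.28 FPKM in POLG and 4.87 ± 0.38 FPKM in WT.

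None of the 6 electron donors tested passed by limma, with a list median of -0.08. Of these 6, 1 had an unadjusted p under 0.05, against 2277 of all 10236 genes. Cyb5a, the cytochrome b5 of the endoplasmic reticulum, had the smallest p (difference -0.53, SE 0.19, limma adjusted p = 0.159). Cyb5a lay wholly lower at 3.64 to 7.08 FPKM in POLG against 7.5 to 11.3 FPKM in WT, as did 12.9% of all genes tested. Cyb5r3, its reductase, came next with a difference of 0.11 (limma adjusted p = 0.455). Of the 4 other membrane desaturases tested none passed by limma, and 1 had an unadjusted p under 0.05. Fads3 had a difference of -0.22 (limma adjusted p = 0.175), and Fads2, the Δ6-desaturase of polyunsaturated fatty acids, had a difference of -0.10 (limma adjusted p = 0.677).

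Of the 15 genes tested that use oleoyl-CoA and palmitoleoyl-CoA, 1 was lower in POLG, against 2.12% of all genes tested. The list median was 0.001, and 9 of 15 differences lay above 0, against 31.7% of those of all genes tested. Gpat4, a glycerol-3-phosphate acyltransferase of the endoplasmic reticulum, was at 4.15, 4.55, 4.36 and 3.69 FPKM in POLG E to H, and at 5.58, 5.64, 5.46 and 6.06 FPKM in WT A to D (log2 difference -0.37, SE 0.08, limma adjusted p = 0.0473). Dgat2, which makes triglycerides from newly formed fatty acids, was at 94.5 ± 5.84 FPKM in POLG and 124 ± 23.3 FPKM in WT and did not pass (limma adjusted p = 0.131). None of the 13 sterol genes tested passed by limma, and 5 had an unadjusted p under 0.05 (2277 of all 10236 genes). Among the sterol genes, Pmvk (difference -0.44, limma adjusted p = 0.0958) and Sc5d (difference -0.40, limma adjusted p = 0.116) had the smallest p. Gpat4 missed the threshold on omitting any 1 of the 8 libraries (limma adjusted p 0.0714 to 0.137), Fasn for 7 of the 8 (0.0195 to 0.113) and Mlxipl for 6 of the 8 (0.0235 to 0.0884). Without WT C and WT D the adjusted p by limma was 0.148 for Mlxipl, 0.178 for Fasn and 0.209 for Gpat4.

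**Figure D4:**
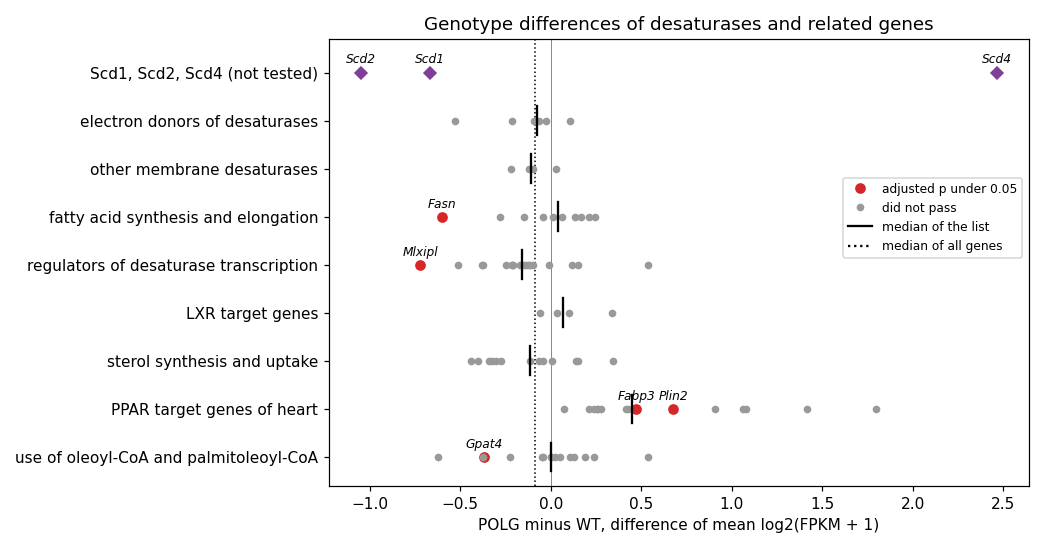
POLG minus WT difference of mean log2(FPKM + 1) (horizontal) for Scd1, Scd2 and Scd4 (purple) and for the tested and reported genes of 8 related lists (rows); red points passed an adjusted p under 0.05, grey points did not, short lines are list medians and the dotted line is the median of all genes tested, -0.09. Scd4 lies at 2.46, Scd1 at -0.67 and Scd2 at -1.05, and the PPAR target genes drawn all lie right of 0.

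Scd1 is abundant in fat cells, and fat lies on the surface of the heart, so markers of white adipocytes were read beside it. The summed FPKM of the 10 markers was 1.92, 0.330, 0.681 and 0.489 in POLG E to H, and 0.736, 0.340, 5.21 and 7.87 in WT A to D. WT C and WT D were far above the rest, as they were for Scd1. Of the 10 markers, 6 were higher in both of them than in WT A and WT B. The same order held for 24.7% of all genes tested, for 5 of 5 atrial markers and for 4 of 5 mesothelial markers. The genotype difference of the sum was -2.68 FPKM (exact two-sided permutation test over 70 assignments, p = 0.257, where 0.0286 is the smallest p possible), and without WT C and WT D it was 0.317 FPKM (exact p = 0.8). None of the 10 markers reached a mean of 1 FPKM. The part of adipocyte RNA in the Scd1 difference was not tested. Of the 4 brown adipocyte markers, Cidea, also among the genes most like Scd4, was the only member tested and was higher in POLG (24.8 ± 2.66 FPKM in POLG and 15.1 ± 1.96 FPKM in WT, log2 difference 0.68, limma adjusted p = 0.0245). Ucp1, the defining marker, was at 0.189 FPKM in POLG E and listed at 0 elsewhere, Elovl3 was listed at 0 in all libraries, and Zic1 was above 0 in WT B alone. The part of brown adipocyte RNA in the Scd4 difference was not tested.

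The low Scd2 of POLG H went with low values of many other genes. POLG H was the lowest POLG library for 6 of 6 fibroblast markers and 5 of 5 endothelial markers, against 56.1% of all genes tested. The summed fibroblast markers were 81.4, 77.7, 87.1 and 45.2 FPKM in POLG E to H, and 95.6, 86.9, 89.4 and 114 FPKM in WT A to D. POLG G, with 1.08 FPKM of Scd2, had the highest fibroblast sum of POLG. Dcn, a member of that list, was at 46.9, 39.4, 38.7 and 34.0 FPKM in POLG E to H, which is the order of Scd2. With each genotype centred on its own mean, r of Scd2 with the 6 fibroblast markers was between 0.31 and 0.74. The part of cell makeup in the Scd2 difference was not tested.

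**Figure D5:**
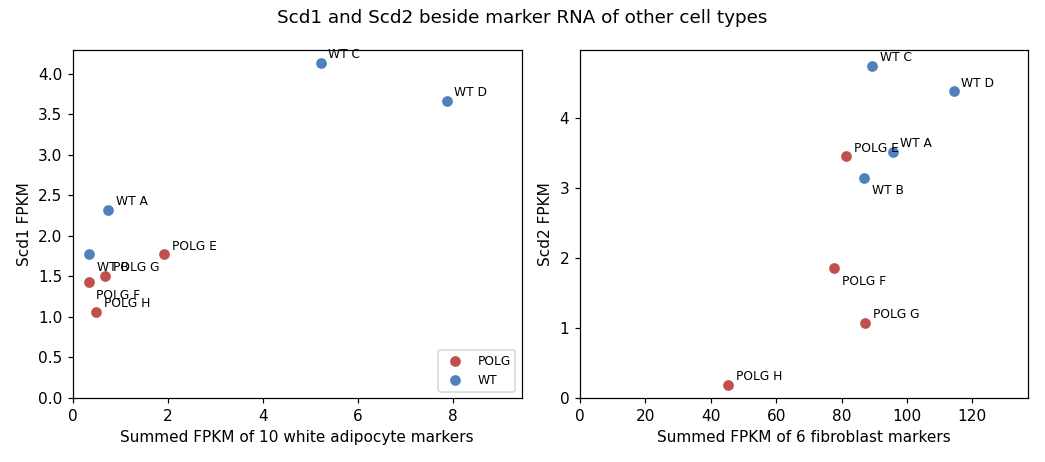
Left, Scd1 FPKM (vertical) against the summed FPKM of 10 white adipocyte markers (horizontal); right, Scd2 FPKM against the summed FPKM of 6 fibroblast markers; each point is a library, POLG in red and WT in blue. WT C and WT D have the highest Scd1 and the highest adipocyte sums (5.21 and 7.87 FPKM), and POLG H has the lowest Scd2 and the lowest fibroblast sum (45.2 FPKM).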

How the data were processed

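Libraries of 8 right ventricles were stranded and poly(A)-selected and were read in paired ends. The authors used HISAT2 (mm10) and StringTie and deposited FPKM per gene, with 0.0001 for a value of 0 (read here as 0). The submitters' processing notes also name cutadapt, FastQC and edgeR. Tool versions were not given in the sources used here. Columns deposited with the authors' ratio of means and its log2 were not used, and 0 columns of library values were left out.

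Libraries were assigned by their labels. Genes whose mean reached 1 FPKM entered a limma fit (3.58.1, R 4.3.3) of log2(FPKM + 1) on genotype, with trended prior variance. FPKM are not counts and no count test was run. Whole reads were not recovered, since 52.5% to 56.3% of the low values used for the depth fell no more than 0.1 from a whole fragment number, where 20% would without steps, so depths and fragment numbers are rough. The limit of 3 fragments covers counting error only. The members and lists were chosen with earlier results of these data known. Genes named are the 4 members, every list gene that passed or else the 2 with the smallest p, up to 5 further genes per list for their role, the 5 genes most like each member and the nearest expressed neighbours. The values of 1 gene that this rule selects are not reported here or drawn. The step was tested on simulated data.

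Gene models and transcripts are those of GENCODE M21 (mm10). Coding sequences were aligned with mafft 7.526. Sequence work used Python 3.11.15 with numpy 2.4.6 and figures matplotlib 3.10.9. The alternatives were pseudocounts of 0.1 and 5, filters of 0 and 5 FPKM, 3 other scalings, weighted libraries, a robust prior, an untrended prior, the ratio of means, the mean log2 of the adipocyte markers, and leaving out libraries.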

Additional observations from a re-analysis of the deposited data

Results flagged for a closer look

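Among 30 groups of 4 libraries examined, 3 had a library far from the other 3, where chance alone sets apart about 1 in 20 groups. All 3 were WT B. Scd4 was at 6.31 FPKM in WT B, against 1.39 to 1.89 FPKM in the other WT libraries. The share of Scd4 in the summed FPKM of Scd1 to Scd4 was 56.0% in WT B, against 17.5% to 19.03% in the others, and this value rests on the same Scd4 level. Pdk4, the pyruvate dehydrogenase kinase, was at 291 FPKM in WT B, against 40.9 to 43.2 FPKM in the others. The summed white adipocyte markers of WT B were at 0.340 FPKM, the lowest of WT.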

How the results depend on the processing

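The log2 differences of Scd4, Scd1 and Scd2 and the Scd4 share kept their sign under every alternative run for them. Scd4 was at 1.60 with a pseudocount of 5. Scd1 was at -0.30 with a pseudocount of 5, at -0.32 without WT C and WT D and at -1.05 as the log2 of the ratio of means. Scd2 was at -1.69 with a pseudocount of 0.1 and at -0.45 with 5. The adipocyte sum turned to 0.317 without WT C and WT D, and lay between -3.75 and -1.24 when single libraries were left out.

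Counts of calls moved more. Of all genes, 19 were higher and 58 lower with no filter, 129 and 120 with median ratio scaling, 128 and 140 with quantile normalization, 120 and 354 with library weights, 11 and 13 without WT C and WT D, and 21 and 43 without WT B and POLG H, a setting chosen after seeing the data. Leaving out single libraries gave 10 to 60 higher and 30 to 117 lower, the fewest without WT D. Of the list genes, 0 were higher and 0 lower with no filter and without WT C and WT D, 5 and 0 with a filter at 5 FPKM, which none of Fasn, Mlxipl and Gpat4 reaches. With library weights 5 were higher, and with median ratio scaling 1 was lower. Leaving out single libraries gave 0 to 5 higher and 0 to 2 lower. The cause was not tested. Over all alternatives, the adjusted p by limma ranged from 0.0185 to 0.103 for Fabp3, 0.0231 to 0.148 for Plin2, 0.0167 to 0.148 for Mlxipl, 0.0195 to 0.178 for Fasn and 0.0305 to 0.209 for Gpat4. It was above the threshold for Fasn (0.052) and Mlxipl (0.0522) with median ratio scaling, for Mlxipl (0.0525) and Fabp3 (0.0926) with quantile normalization, and for Plin2 (0.0588) and Gpat4 (0.0593) with scaling to nuclear-encoded genes. Of 117 such values of the list genes that passed, 58 missed the threshold and 0 changed sign.

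No paired analysis was possible because the library letters differ between the genotypes. Depth limits Scd3, at fewer than 5 fragments per library, and Scd2 in POLG H.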
